A study of Mus musculus with 12 samples.

Results

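The genes described are 10 regulators of the step from G1 to S phase of the cell cycle, namely the cyclin genes Ccnd1, Ccnd2, Ccnd3 and Ccne1, the CDK inhibitor genes Cdkn1a, Cdkn1b, Cdkn2a, Cdkn2b and Cdkn2c, and Rb1. Of 18193 genes named on the array, these 10 were read on every probe set that the array's annotation assigns to 1 of them and to no other gene, which gave 24 probe sets among 45037 that are not controls. Of these, 22 reached the intensity needed for a test, among 24820 such probe sets. The values came from 12 Affymetrix arrays of mouse fetal testes at stage E15.5, 3 arrays in each of 4 groups. The groups were Dmrt1 knockout and wild-type testes of strain 129Sv, and Dmrt1 knockout and wild-type testes of strain B6. Dmrt1 encodes a DM domain transcription factor of germ cells and Sertoli cells, and 129 strains are known for testicular teratomas that arise from fetal germ cells. The sample labels say knockout and the series title says conditional knockout. Neither gives the deleted part of the gene or a Cre driver. The growth protocol names P28 where the other labels give E15.5. No label says that the arrays of a group came from separate animals, and p-values therefore rest on the spread among arrays, which may be technical.

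D-type cyclins bind CDK4 or CDK6 and start the phosphorylation of the retinoblastoma protein, the product of Rb1, and cyclin E with CDK2 continues it, which frees E2F factors to switch on S-phase genes. The INK4 inhibitors (Cdkn2a, Cdkn2b, Cdkn2c) block CDK4 and CDK6, whereas the CIP/KIP inhibitors (Cdkn1a, Cdkn1b) act on several cyclin-CDK pairs. In the fetal mouse testis, male germ cells leave the cell cycle around this stage and stay in G0/G1 until after birth, while Sertoli cells go on dividing.

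Promoter sequences are shown for Cdkn2b and Cdkn2a, neighbours on the chromosome that both differed between the strains, and for Cdkn1a, which differed between genotypes in 129Sv. The promoter set used, for GRCm38.p6, the C57BL/6J reference, held a promoter for 7 of the 10 genes. These came in 11 windows of 250 bases before to 50 bases after a start site. Ccnd1, Ccnd2 and Rb1 had no window in it. In RefSeq's list of genes, no protein-coding gene lies between Cdkn2a and Cdkn2b. Capitals mark the GC box GGGCGG, the E2F type motif TTCCCGC and the CCAAT box, each searched on both strands, so that a CCAAT box of the other strand reads ATTGG.
Cdkn2b, chr4:89310983-89311282, minus strand: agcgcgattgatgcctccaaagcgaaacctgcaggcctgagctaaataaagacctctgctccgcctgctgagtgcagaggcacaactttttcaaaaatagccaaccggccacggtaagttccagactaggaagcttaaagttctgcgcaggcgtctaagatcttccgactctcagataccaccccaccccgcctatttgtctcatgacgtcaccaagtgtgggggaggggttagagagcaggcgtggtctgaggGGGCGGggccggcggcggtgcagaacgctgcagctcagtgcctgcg
Cdkn2a, chr4:89294570-89294869, minus strand: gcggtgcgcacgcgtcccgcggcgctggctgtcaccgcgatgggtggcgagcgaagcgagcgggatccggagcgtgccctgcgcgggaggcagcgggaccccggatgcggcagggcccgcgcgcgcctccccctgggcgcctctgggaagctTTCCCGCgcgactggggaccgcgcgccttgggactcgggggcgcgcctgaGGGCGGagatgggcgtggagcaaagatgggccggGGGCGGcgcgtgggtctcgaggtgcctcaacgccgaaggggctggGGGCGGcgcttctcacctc
Cdkn2a, second window, chr4:89282143-89282442, minus strand: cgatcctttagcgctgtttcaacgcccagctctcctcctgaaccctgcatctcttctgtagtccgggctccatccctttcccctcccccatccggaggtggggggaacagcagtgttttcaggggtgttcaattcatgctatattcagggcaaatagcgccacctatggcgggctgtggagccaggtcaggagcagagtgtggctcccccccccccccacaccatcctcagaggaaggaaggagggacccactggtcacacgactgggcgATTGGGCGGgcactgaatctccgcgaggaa
Cdkn1a, chr17:29093519-29093818, plus strand: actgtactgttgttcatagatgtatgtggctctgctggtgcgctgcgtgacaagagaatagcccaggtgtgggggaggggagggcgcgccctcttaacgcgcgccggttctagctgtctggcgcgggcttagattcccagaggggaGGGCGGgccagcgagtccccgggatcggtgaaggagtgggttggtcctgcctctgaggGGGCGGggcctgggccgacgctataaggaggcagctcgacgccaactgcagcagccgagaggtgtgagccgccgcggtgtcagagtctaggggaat
The Cdkn2b window held 1 GC box and was 57.7% G or C with 18 CpG pairs. The first Cdkn2a window held 3 GC boxes and 1 E2F type motif and was the richest of the 4 shown, with 77.0% G or C and 45 CpG pairs. The second Cdkn2a window, with 60.3% G or C and 12 CpG pairs, held a CCAAT box that overlaps its 1 GC box. The Cdkn1a window shown held 2 GC boxes, with 64.7% G or C and 23 CpG pairs. Another Cdkn1a window (chr17:29090729-29091028), not shown, held none of these motifs, with 54.7% G or C and 2 CpG pairs. Among 32851 promoters of the same length, 35.7% held a GC box, 4.60% the E2F type motif and 37.4% a CCAAT box, and the median was 52.7% G or C with 7 CpG pairs. The DM domain type motif ACATTGT stood in none of the 11 windows of the listed genes and in 2.96% of all promoters. At such a share 11 windows can hold none, and Ccnd1, Ccnd2 and Rb1 were not searched. These matches describe letters of the reference strain only.

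The median intensity of an array lay between 17.3 and 19.0, and arrays of the same group had a Pearson r of 0.983 to 0.998 over all probe sets. The Actb ratio (intensity at the 3′ end over that at the 5′ end, a sign of RNA degradation) stood at 6.30 on B6 knockout replicate 3, 5.24 on 129Sv knockout replicate 1 and 3.91 on 129Sv wild-type replicate 2, with all other arrays at 1.99 to 2.79. The titles of 129Sv wild-type replicates 1 and 3 carry the number 11 before the strain code, and those of the other 129Sv arrays carry 7, with no meaning given. In B6, the knockout and wild-type replicates 1 share the first number of their titles, as do the replicates 2, also with no meaning given. Dmrt1 had 173, 145 and 181 intensity units in 129Sv knockout testes, against 1183, 924 and 1014 in 129Sv wild-type testes. It had 86.4, 64.0 and 72.9 in B6 knockout testes, against 795, 1092 and 1066 in B6 wild-type testes. The single Dmrt1 probe set was thus lower on every knockout array (limma adjusted p = 3.21e-06 in 129Sv and 2.57e-07 in B6). All 8 measured germ cell markers and all 10 Sertoli cell markers reached an intensity of 16 on at least 3 arrays. A difference between whole testes can come from fewer cells of a type or from less RNA per cell, and these cannot be told apart here.

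In 129Sv, knockout and wild-type testes were compared to ask which of these regulators depend on Dmrt1 in a strain prone to germ cell tumours. Ccnd1 was higher on all 3 of its probe sets, by 1.61 to 2.48 times, and Cdkn1a was 2.60-fold higher. Ccnd2 was lower on 5 of its 7 probe sets, by 1.36 to 1.99 times, and 1 low probe set of Ccnd3 was 3.05-fold lower. Of the 22 tested probe sets, 4 rose, 6 fell and 12 did not pass (limma, Benjamini-Hochberg adjusted p under 0.05), which is 45.5%, against 5.24% of all tested probe sets (2.74% higher, 2.51% lower). The arrays of the groups did not overlap for 17 of the 22, against 26.9% of all. The median log2 difference was -0.10 over the 22 and -0.01 over all. Probe sets of 1 gene share a target and are not separate observations.

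Ccnd1 encodes cyclin D1, a growth-factor-responsive partner of CDK4. Its probe set 1448698_at had intensities of 704, 811 and 743 in 129Sv knockout testes, against 493, 447 and 460.3 in 129Sv wild-type testes. Every knockout array was above every wild-type array, and the log2 difference was 0.69 ± 0.15 (SE, limma adjusted p = 0.0148). The next, 1417420_at, read 227, 259.9 and 159.5 in knockout testes, against 71.6, 90.3 and 97.9 in wild-type testes, a log2 difference of 1.30 ± 0.31 (adjusted p = 0.0252). The last, 1417419_at, read 62.5, 51.6 and 34.6 in knockout testes, against 18.4, 22.04 and 18.04 in wild-type testes, a log2 difference of 1.31 ± 0.25 (adjusted p = 0.00824). Its wild-type arrays were near the intensity floor of 16. The groups did not overlap on any of the 3 probe sets, although the probe sets correlated with each other over the 12 arrays with r of 0.42 to 0.86.

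Ccnd2 encodes cyclin D2, the D-type cyclin known in the mouse for its role in the gonads. On 1416122_at it had 417, 425 and 483 in 129Sv knockout testes, against 869, 765 and 812 in 129Sv wild-type testes. The knockout arrays lay close together and well below the wild-type arrays, at a log2 difference of -0.89 ± 0.15 (limma adjusted p = 0.00304). On 1434745_at, the probe set of highest intensity, it had 1961, 2147 and 2205 in knockout testes, against 3180.2, 2467 and 2951 in wild-type testes (-0.44 ± 0.11, adjusted p = 0.0410). On 1416123_at it had 654, 948 and 883 in knockout testes, against 2029, 1296 and 1634 in wild-type testes (-0.99 ± 0.21, adjusted p = 0.0130). Both of these also showed no overlap between the groups. The probe sets 1430127_a_at (-0.82 ± 0.16, adjusted p = 0.0102) and 1455956_x_at (-0.77 ± 0.15, adjusted p = 0.00752) fell too. The other Ccnd2 probe sets did not pass. On 1448229_s_at the intensities were 333, 404 and 365 in knockout testes, against 766, 424 and 605 in wild-type testes (adjusted p = 0.0835), and on 1416124_at 508, 669 and 584, against 727, 687 and 674 (adjusted p = 0.326). The suffixes s and x mark probe sets that may also match other transcripts, and the 7 probe sets correlated over the arrays with r of 0.73 to 0.98.

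**Figure D1:**
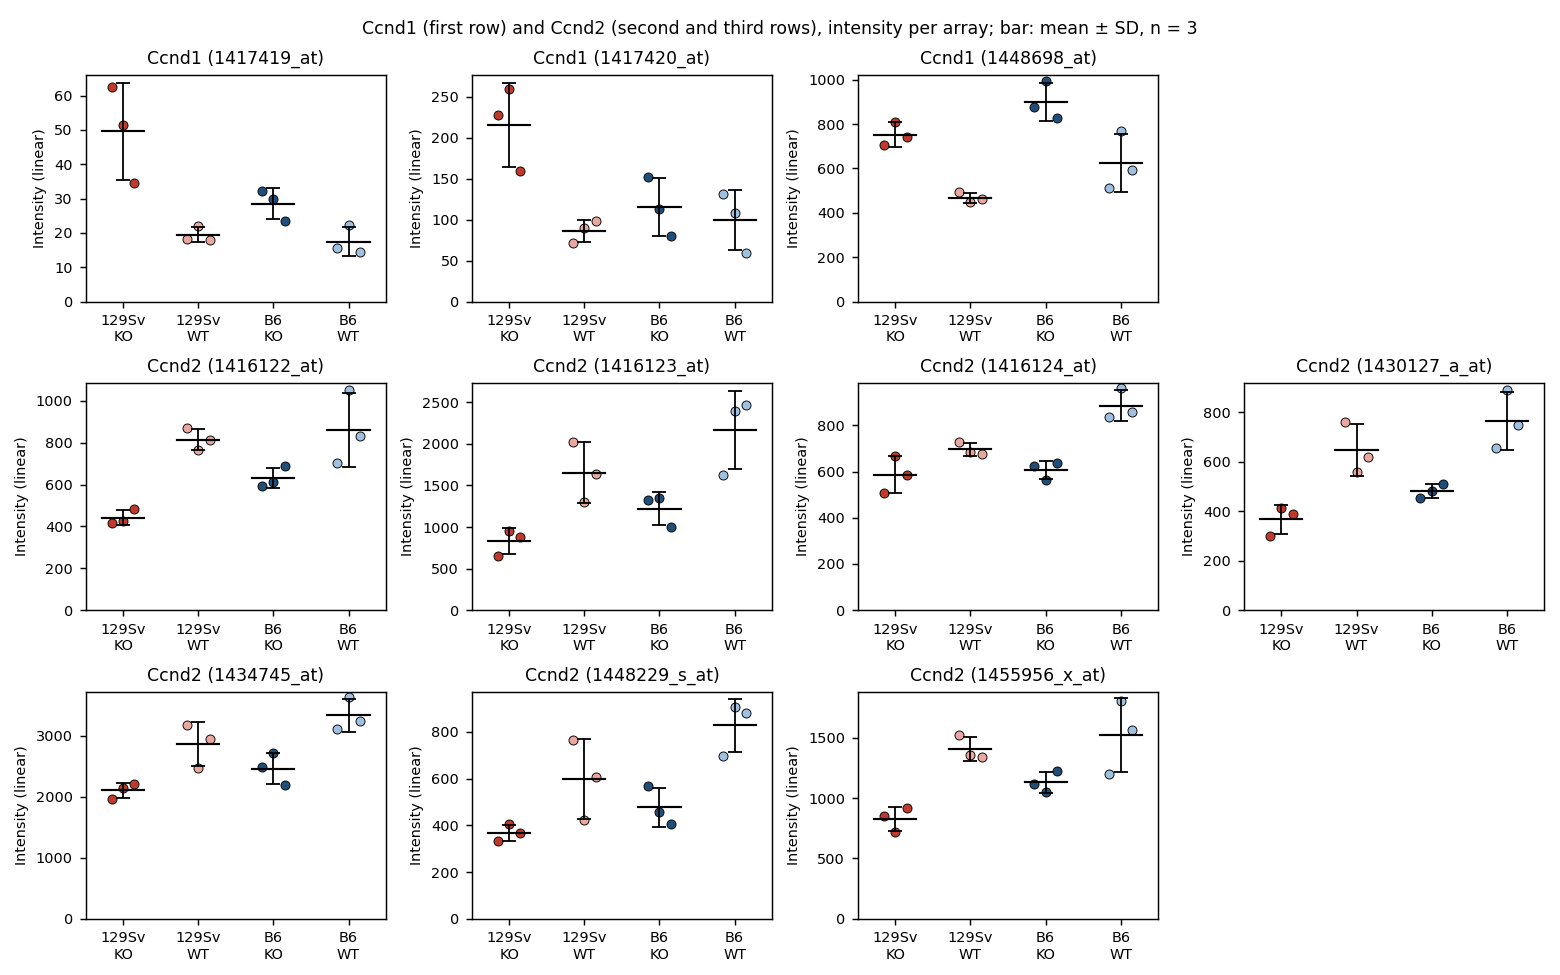
Intensity (linear scale, arbitrary units) of the 3 Ccnd1 probe sets (first row) and the 7 Ccnd2 probe sets (the other rows) on each of the 12 arrays, as points by group, with a bar for the mean and its SD. In 129Sv the knockout arrays lie above the wild-type arrays for Ccnd1 and below them for Ccnd2, and Ccnd2 1434745_at also shows the knockout arrays below the wild-type arrays in B6.

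Ccnd3, which encodes cyclin D3, gave different readings on its probe sets. The bright one (1415907_at) had 1471, 1493 and 1506 in 129Sv knockout testes, against 1482, 1533 and 1428 in wild-type testes, so the groups overlapped. The dim one (1438805_at) had 17.2, 17.5 and 29.4 in knockout testes, against 48.3, 61.3 and 84.5 in wild-type testes, a log2 difference of -1.61 ± 0.27 (limma adjusted p = 0.00300). Over the 12 arrays they correlated with r of -0.48, and a further Ccnd3 probe set (1444323_at), at 7.82 to 16.4, was not tested. Ccne1, the gene of cyclin E1, had 214, 211 and 152 on 1416492_at in knockout testes, against 136, 141 and 142 in wild-type testes. Its groups did not overlap, but the difference did not pass (adjusted p = 0.186). On 1441910_x_at Ccne1 had 239, 228 and 187 in knockout testes, against 187, 185 and 163 in wild-type testes, with the lowest knockout array level with the highest wild-type array.

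Cdkn1a encodes the inhibitor known as a target of p53 in the response to DNA damage. On 1424638_at it had 189, 299 and 299 in 129Sv knockout testes, against 84.5, 102 and 112 in 129Sv wild-type testes, means of 263 ± 63.3 and 99.4 ± 13.9 (SD, n = 3 each). Every knockout array was above every wild-type array, and the log2 difference was 1.38 ± 0.27 (limma adjusted p = 0.00911). The second probe set, 1421679_a_at, lay near the intensity floor of 16, with 17.2, 19.6 and 26.9 in knockout testes, against 12.4, 12.6 and 14.3 in wild-type testes (adjusted p = 0.154). It followed the first over the 12 arrays with r of 0.92.

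The remaining inhibitors and Rb1 did not pass in 129Sv. Cdkn1b, the CIP/KIP inhibitor that holds many quiescent cells in G1, had 2112, 2751 and 2000.2 on 1434045_at in knockout testes, against 1560.0, 1826 and 1945 in wild-type testes. All its knockout arrays were above all wild-type arrays, with an adjusted p of 0.145. Cdkn2b had 124, 125 and 143 in knockout testes, against 78.3, 84.6 and 60.8 in wild-type testes, also without overlap and short of the threshold (log2 difference 0.82 ± 0.25, adjusted p = 0.0889). Cdkn2a had 69.6, 60.5 and 72.6 in knockout testes, against 64.1, 84.8 and 83.8 in wild-type testes, and Rb1 (1417850_at) had 486, 648 and 569, against 585, 617 and 603. Both overlapped between genotypes. Cdkn2c overlapped as well, with 114, 59.2 and 82.9 in knockout testes, against 87.8, 119 and 67.5 in wild-type testes. The second Cdkn1b probe set (1419497_at) had 219, 304 and 285 in knockout testes, against 368, 201 and 324 in wild-type testes, and it correlated with the first at r of only 0.31. The second Rb1 probe set (1444400_at), at 4.25 to 6.28 on all arrays, was not tested.

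With the title number 11 as a covariate, wild-type replicate 2 alone stands for 129Sv wild type. All 10 called probe sets kept their sign there, but with 1 array this setting cannot tell whether the calls hold. The count of 10 became 6 without 129Sv knockout replicate 1, 6 without knockout replicate 2, 5 without wild-type replicate 1 and 6 without wild-type replicate 3. Ccnd1 1448698_at no longer passed without knockout replicate 2 (adjusted p = 0.0737), wild-type replicate 2 (0.0559) or wild-type replicate 3 (0.0633), and Cdkn1a 1424638_at without knockout replicate 2 (0.0546) or wild-type replicate 1 (0.0523). Ccnd1 1417420_at failed without any 1 of the 129Sv arrays but knockout replicate 3 (adjusted p of 0.0615 to 0.124). Ccnd2 1430127_a_at failed without knockout replicate 1 (0.0532) or wild-type replicate 1 (0.0610), and Ccnd2 1416123_at without these (0.0677 and 0.0730) or wild-type replicate 3 (0.0528). Ccnd2 1434745_at failed without any 1 of the 129Sv arrays but wild-type replicate 2, and without B6 knockout replicate 1 or B6 wild-type replicate 1 or 3 (adjusted p of 0.0502 to 0.188). Ccnd1 1417419_at, Ccnd2 1416122_at, Ccnd2 1455956_x_at and Ccnd3 1438805_at passed with any 1 array left out. The summed intensity of the germ cell markers was 17699.9 to 21827 in knockout testes, against 17375 to 17706 in wild-type testes, and that of the Sertoli cell markers 15674 to 18984, against 20896 to 22482. The fetal Leydig cell sum was 14759.6 to 16841 in knockout testes, against 18309 to 19256 in wild-type testes, the endothelial sum 979.7 to 1178, against 1279 to 1368, and the ovarian somatic sum 848 to 915, against 737 to 791. The Sertoli, Leydig, endothelial and ovarian somatic sums did not overlap between the groups, and the part of any of the 5 in these differences was not tested.

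**Figure D2:**
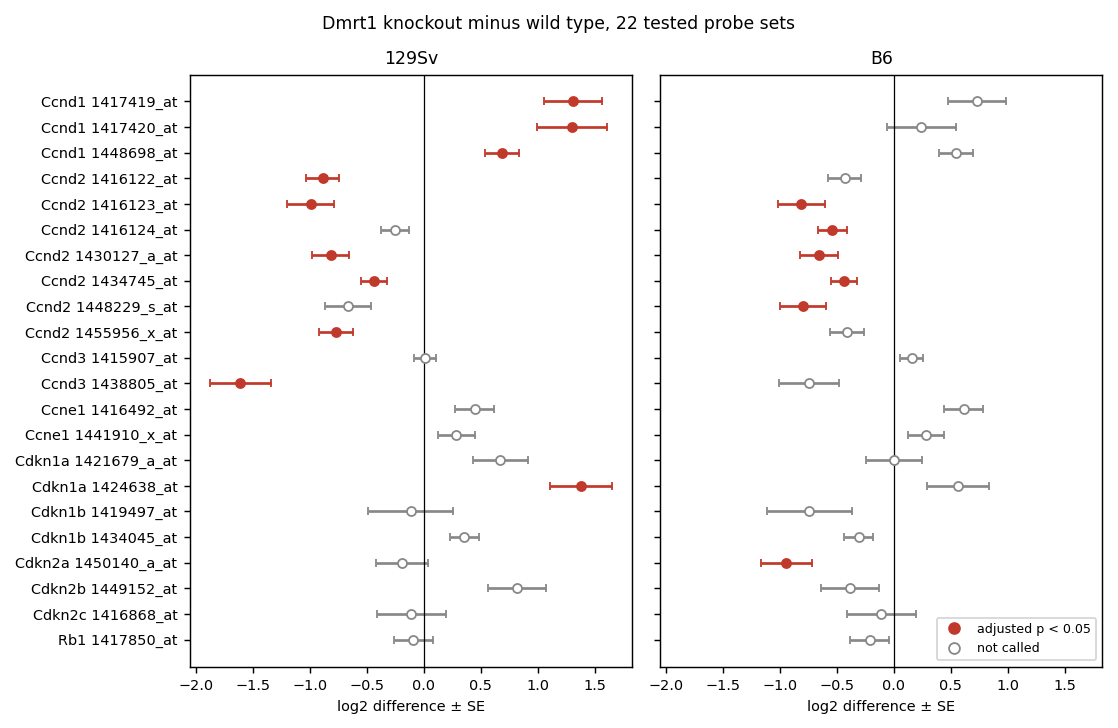
Log2 difference of knockout minus wild type with its standard error for the 22 tested probe sets, in 129Sv and in B6. Red filled points passed at an adjusted p under 0.05, which 4 positive and 6 negative differences did in 129Sv, and 0 positive and 6 negative differences in B6.

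In B6, knockout testes also had less Ccnd2 than wild-type testes, again on 5 of 7 probe sets and by 1.36 to 1.76 times, and Cdkn2a was 1.92-fold lower. In all, 6 of 22 tested probe sets fell and 16 did not pass, which is 27.3%, against 4.61% of all tested probe sets (1.17% higher, 3.44% lower). None passed as higher in the fit over all 12 arrays, but Ccnd1 1448698_at did under 6 of 27 alternatives, Cdkn1a 1424638_at under 3 of 27 and Ccne1 1416492_at under 2 of 26. Ccnd1 1417419_at and Ccne1 1441910_x_at passed as higher with array weights only. The groups did not overlap for 12 of the 22, against 24.8% of all. The median log2 difference was -0.35 over the 22 and 0.01 over all.

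Ccnd2 1434745_at had 2484, 2712 and 2194 in B6 knockout testes, against 3117, 3641 and 3245 in B6 wild-type testes. Every knockout array was below every wild-type array, and the log2 difference of -0.44 ± 0.11 (limma adjusted p = 0.0450) was of the same size as in 129Sv. On 1416124_at Ccnd2 had 624, 564 and 637 in knockout testes, against 836, 960.4 and 859.7 in wild-type testes (-0.54 ± 0.13, adjusted p = 0.0267). On 1416123_at it had 1319.8, 1349.6 and 996 in knockout testes, against 1629.8, 2397 and 2472 in wild-type testes (-0.81 ± 0.21, adjusted p = 0.0405). The probe sets 1430127_a_at (-0.66 ± 0.16, adjusted p = 0.0370) and 1448229_s_at (-0.80 ± 0.20, adjusted p = 0.0411) fell as well. On 1416122_at, the most clearly lower one in 129Sv, the B6 intensities were 595, 612 and 689 in knockout testes, against 703, 1053 and 833 in wild-type testes, without overlap but short of the threshold (adjusted p = 0.116). The Ccnd2 probe sets 1416123_at, 1430127_a_at and 1434745_at passed in both strains, and all 7 had a negative difference in both.

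Ccnd1 did not pass in B6. On 1448698_at it had 878, 996 and 826 in B6 knockout testes, against 513, 767 and 594 in B6 wild-type testes, a log2 difference of 0.54 ± 0.15 with an adjusted p of 0.0538 (limma). All knockout arrays were above all wild-type arrays there, and also on 1417419_at, with 32.2, 30.0 and 23.5 in knockout testes, against 15.7, 22.4 and 14.3 in wild-type testes (adjusted p = 0.127). On 1417420_at the groups overlapped, at 152, 114 and 80.4 in knockout testes, against 131, 108 and 59.3 in wild-type testes. Ccne1 1416492_at had 209, 276 and 210.0 in knockout testes, against 159.6, 143 and 149 in wild-type testes, without overlap (0.61 ± 0.17, adjusted p = 0.0638), and 1441910_x_at had 219, 238 and 176, against 179, 175 and 163. Ccnd3 1438805_at had 15.48, 13.8 and 12.4 in knockout testes, against 21.2, 20.8 and 28.4 in wild-type testes (adjusted p = 0.131), and the bright Ccnd3 probe set had 1711, 1743 and 1589, against 1705, 1383 and 1457.

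Cdkn2a encodes an INK4 inhibitor and, from another first exon and reading frame, the ARF protein, and its only probe set (1450140_a_at) does not tell their transcripts apart. It had 20.3, 22.4 and 21.0 in B6 knockout testes, against 30.5, 38.9 and 57.0 in B6 wild-type testes, means of 21.2 ± 1.06 and 42.1 ± 13.5 (SD, n = 3 each). The knockout arrays were near the floor of 16 and all below the wild-type arrays, at a log2 difference of -0.94 ± 0.23 (limma adjusted p = 0.0319). Cdkn2b was near the floor too, with 24.9, 21.2 and 13.3 in knockout testes, against 19.2, 27.3 and 30.0 in wild-type testes, and overlapped. Cdkn1a 1424638_at had 109, 114 and 60.2 in knockout testes, against 69.3, 70.6 and 47.6 in wild-type testes, and overlapped at the lowest knockout array. That array is B6 knockout replicate 3, the one of the highest Actb ratio. The difference did not pass (limma adjusted p = 0.252). It passed with array weights (0.00445), with the Actb ratio as a covariate (0.0284) and without the 2 arrays of the highest Actb ratio (0.0381). The fall of Cdkn2a passed under neither of the last 2 settings.

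Cdkn1b 1434045_at had 2617, 2287 and 2244 in B6 knockout testes, against 3034, 2758 and 3065 in B6 wild-type testes, so every knockout array was below every wild-type array (limma adjusted p = 0.183). On 1419497_at it had 378, 317 and 112 in knockout testes, against 333, 478 and 395 in wild-type testes. The value of 112 belongs to B6 knockout replicate 3, the array of the highest Actb ratio. Cdkn2c, at 97.6, 82.8 and 172 in knockout testes, against 124, 106 and 133 in wild-type testes, and Rb1, at 266, 257 and 173, against 275, 272 and 247, did not pass.

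**Figure D3:**
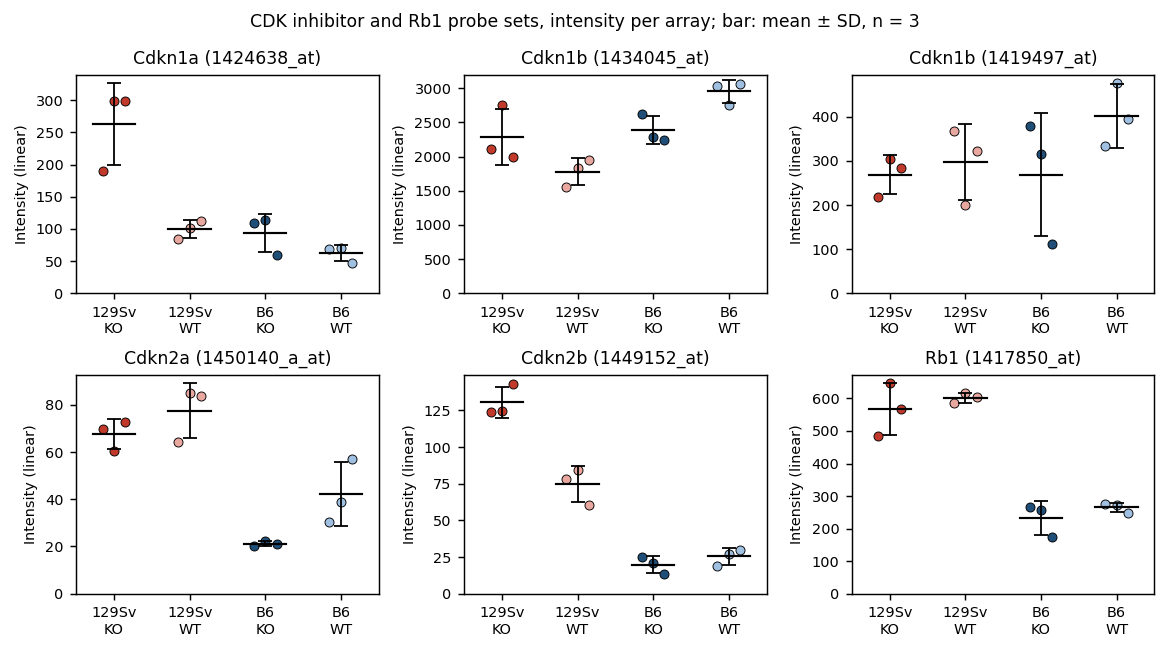
Intensity (linear scale, arbitrary units) of 5 probe sets of CDK inhibitor genes and 1 of Rb1 on each of the 12 arrays, as points by group, with a bar for the mean and its SD. Cdkn1a is high in 129Sv knockout testes (mean 263, against 99.4 in 129Sv wild type), and Cdkn2a, Cdkn2b and Rb1 are higher in both 129Sv groups than in both B6 groups.

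The B6 count depended on single arrays. It was 3 without B6 knockout replicate 1, 0 without knockout replicate 2, 2 without knockout replicate 3, 0 without wild-type replicate 3 and 1 without 129Sv wild-type replicate 3, which enters through the shared estimate of the spread. Without B6 wild-type replicate 2 none of the 6 falls passed, and the 1 call was Ccnd1 1448698_at as higher. The count was also 0 when only the B6 arrays were fitted and 15 with array weights (5 higher, 10 lower), where B6 knockout replicate 3 had a weight of 0.172. With the Actb ratio as a covariate none of the 6 falls passed, and 2 probe sets passed as higher. All 5 Ccnd2 calls were lost without knockout replicate 2 (limma adjusted p of 0.0515 to 0.107), wild-type replicate 2 (0.1001 to 0.156) or wild-type replicate 3 (0.0938 to 0.188). Cdkn2a had an adjusted p of 0.156 without wild-type replicate 3, 0.0712 without wild-type replicate 2 and 0.0541 to 0.0698 without 1 of the knockout replicates. The germ cell marker sum was 8440 to 13072 in knockout testes, against 13377 to 15157 in wild-type testes, the Sertoli cell sum 19423 to 20936, against 21681 to 23002, and the endothelial sum 1557 to 1785, against 1374 to 1518, each without overlap. Their part in the Ccnd2 and Cdkn2a differences was not tested.

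Whether the knockout effect differed between the strains was tested as 129Sv minus B6, and 0 of the 22 probe sets passed with limma, against 0.298% of all tested probe sets (0.274% higher, 0.0242% lower). At an unadjusted p under 0.05 there were 6. Cdkn1b 1434045_at came first, at 0.67 ± 0.18 on the log2 scale (limma adjusted p = 0.146), followed by Cdkn2b at 1.21 ± 0.36 (adjusted p = 0.182). Ccnd1 1417420_at stood at 1.06 ± 0.43 (adjusted p = 0.326), Cdkn2a at 0.75 ± 0.32 (0.346), Ccnd3 1438805_at at -0.86 ± 0.38 (0.354) and Ccnd2 1416122_at at -0.45 (0.375). With array weights 2 of the 22 passed. Ccnd1 and Cdkn1a passed in 129Sv, and in B6 under some alternatives, while Cdkn2a passed in B6, and none of these effects is shown to differ between the strains.

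Between the strains, Cdkn2b, Cdkn2a and Rb1 were higher in 129Sv than in B6 in both genotypes. In wild-type testes 4 probe sets were higher in 129Sv and 1 was lower, 22.7% of the 22, against 13.6% of all tested probe sets (8.22% higher, 5.35% lower). In knockout testes 7 were higher in 129Sv and 2 lower, 40.9%, against 30.0% of all (17.2% higher, 12.7% lower). The groups did not overlap for 15 of the 22 in knockout testes, against 42.0% of all, and for 9 in wild-type testes, against 38.3% of all. These comparisons use the same arrays as the knockout comparisons and are not independent of them.

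Rb1, the gene of the retinoblastoma protein, had 568 ± 81.1 in 129Sv knockout testes, against 232 ± 51.2 in B6 knockout testes (SD, n = 3 each). In wild type it had 602 ± 16.2 in 129Sv testes, against 265 ± 15.2 in B6 testes. The lowest 129Sv array, at 486, was above the highest B6 array, at 275, and the log2 differences were 1.31 ± 0.17 in knockout testes (limma adjusted p = 0.000135) and 1.18 ± 0.17 in wild-type testes (adjusted p = 0.000563). The 4 group levels thus split by strain, and within each strain the genotypes overlapped.

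Cdkn2b, an inhibitor of CDK4 and CDK6 known as a target of TGF-beta signalling, had 131 ± 10.6 in 129Sv knockout testes, against 19.8 ± 5.92 in B6 knockout testes (SD, n = 3 each). This was a 6.80-fold difference, the largest of the 22 in that comparison, with a log2 value of 2.77 ± 0.25 (limma adjusted p = 7.32e-06). In wild type it had 74.6 ± 12.3 in 129Sv testes, against 25.5 ± 5.62 in B6 testes, 2.94-fold higher (1.56 ± 0.25, adjusted p = 0.00139). In order of level the groups ran from B6 knockout and B6 wild type, which overlapped, over 129Sv wild type to 129Sv knockout.

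Cdkn2a had 67.6 ± 6.28 in 129Sv knockout testes, against 21.2 ± 1.06 in B6 knockout testes (SD, n = 3 each), 3.18-fold higher (1.67 ± 0.23, limma adjusted p = 0.000182). In wild type it had 77.6 ± 11.7 in 129Sv testes, against 42.1 ± 13.5 in B6 testes, 1.89-fold higher (0.92 ± 0.23, adjusted p = 0.0174). The wild-type call was lost without 129Sv wild-type replicate 2 (adjusted p = 0.0785), 129Sv wild-type replicate 3 (0.0705) or B6 wild-type replicate 1 (0.0814). Cdkn1a 1424638_at, at 263 ± 63.3 in 129Sv knockout testes, against 94.3 ± 29.6 in B6 knockout testes, was 2.83-fold higher (1.50 ± 0.27, adjusted p = 0.00136). Its second probe set was at least 1.30-fold higher (adjusted p = 0.0105), a call lost without 129Sv knockout replicate 3 (0.0525). In wild type Cdkn1a did not pass, at 99.4 ± 13.9 in 129Sv testes, against 62.5 ± 12.9 in B6 testes.

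Cdkn1b 1434045_at ran the other way in wild type, with 1777 ± 197 in 129Sv testes, against 2953 ± 169 in B6 testes (SD, n = 3 each), 1.67-fold lower (-0.74 ± 0.13, limma adjusted p = 0.00213). In knockout testes it had 2288 ± 405 in 129Sv, against 2383 ± 204 in B6, and overlapped. Ccnd3 1438805_at was 2.71-fold higher in 129Sv wild-type than in B6 wild-type testes (1.44 ± 0.27, adjusted p = 0.00331), at intensities under 100 on every array. In knockout testes Ccnd1 was higher in 129Sv on 1417419_at by 1.70 times (0.77 ± 0.25, adjusted p = 0.0363) and on 1417420_at by 1.90 times (0.92 ± 0.31, adjusted p = 0.0367). On 1448698_at it was not, at 753 ± 54.4 in 129Sv knockout testes, against 899.9 ± 86.9 in B6 knockout testes. Ccnd2 was lower in 129Sv knockout than in B6 knockout testes on 1416122_at (-0.52 ± 0.15, adjusted p = 0.0180) and 1455956_x_at (-0.45 ± 0.15, adjusted p = 0.0336).

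**Figure D4:**
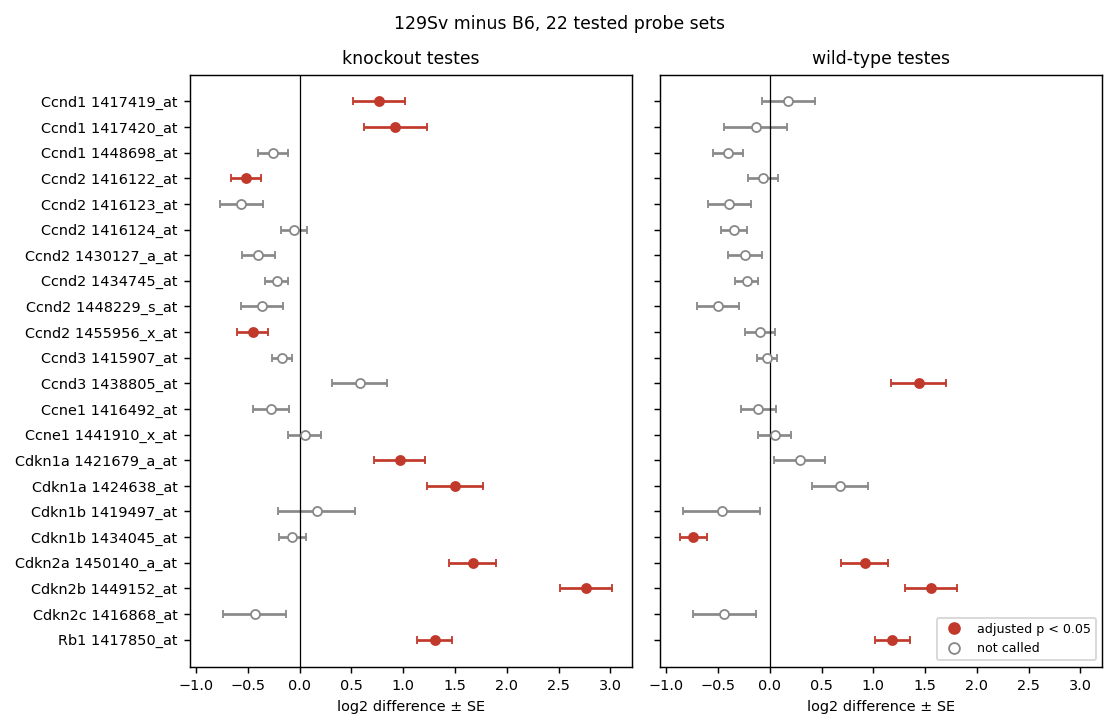
Log2 difference of 129Sv minus B6 with its standard error for the 22 tested probe sets, in knockout testes (left) and wild-type testes (right). Red filled points passed at an adjusted p under 0.05, and Cdkn2b has the largest difference in both panels, 2.77 in knockout and 1.56 in wild-type testes.

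The knockout count of 9 became 5 without 129Sv knockout replicate 1 and 5 without knockout replicate 2, and the lost calls were those of Ccnd1 and Ccnd2 (limma adjusted p up to 0.134). These also depended on single B6 knockout arrays, with Ccnd1 1417419_at at 0.0649 and Ccnd1 1417420_at at 0.0739 without replicate 2, both lost without replicate 3 as well (0.0880 and 0.110), and Ccnd2 1455956_x_at lost without replicate 1 (0.0595) or 3 (0.0819). Ccnd1 1417419_at was lost without 129Sv wild-type replicate 1 (0.0508) or 3 (0.0510) too. In knockout testes the germ cell markers were higher in 129Sv on 8 of 9 probe sets and lower on 1, at sums of 17699.9 to 21827 in 129Sv, against 8440 to 13072 in B6. The fetal Leydig cell markers were lower on 6 of 9, at 14760 to 16841 in 129Sv, against 19802 to 28327 in B6, and the interstitial and peritubular markers on 9 of 16. Of all tested probe sets, 17.2% were higher and 12.7% lower in 129Sv knockout testes. In wild type the germ cell sum was 17375 to 17706 in 129Sv, against 13377 to 15157 in B6. Their part in the strain differences, and that of sequence differences between the strains under the probes, was not tested.

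The other genes of the step from G1 to S were 28, of which 27 were on the array and 26 were tested, on 48 probe sets. In 129Sv, 4 of these rose with the knockout, 0 fell and 44 did not pass, which is 8.33%, against the 5.24% of all. Mycn, a MYC family transcription factor, had 1507, 1785 and 1603 on 1417155_at in knockout testes, against 1079.7, 998 and 1057 in wild-type testes, and its probe sets rose 1.56-fold (limma adjusted p = 0.0241) and 1.72-fold (0.0364). E2f5, a repressor-type E2F factor, rose 1.72-fold on 1417444_at (adjusted p = 0.0239) and Rbl1, the Rb-related pocket protein gene, 1.71-fold on 1425166_at (0.0400). The brighter E2f5 probe set 1460207_s_at did not pass. It had 431, 496 and 395 in knockout testes, against 346, 295 and 340 in wild-type testes, without overlap. The brighter Rbl1 probe set 1424156_at did not pass, with 859, 667 and 724 in knockout testes, against 889.5, 738 and 871 in wild-type testes (adjusted p = 0.637). The count was 0 without 129Sv knockout replicate 2, wild-type replicate 2 or wild-type replicate 3. It was 1 without knockout replicate 1 or wild-type replicate 1, and 2 without knockout replicate 3 or B6 knockout replicate 2.

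In B6, 0 of these 48 probe sets rose and 2 fell, 4.17%, against 4.61% of all, and the count became 4 without B6 wild-type replicate 1. Both belong to Cables1, which encodes a protein that links CDKs to other kinases. On 1422477_at Cables1 had 49.9, 55.1 and 64.4 in B6 knockout testes, against 126, 169 and 133 in B6 wild-type testes, a 2.52-fold fall (limma adjusted p = 0.00144), and on the other it fell 3.80-fold (0.000930). By limma, 0 of the 48 differed in their knockout effect between the strains (9 at an unadjusted p under 0.05), while 25.0% differed between the strains in knockout testes, against 30.0% of all, and 14.6% in wild-type testes, against 13.6% of all. E2f6, a repressor-type E2F gene, came first in both genotypes on 1437914_at, with 18.9, 16.01 and 17.0 in 129Sv knockout testes, against 120.1, 85.1 and 157 in B6 knockout testes, 6.78-fold lower (adjusted p = 9.52e-06). Its brighter probe set 1448835_at did not pass, with 1179, 843 and 1106 in 129Sv knockout testes, against 861, 863 and 972 in B6 knockout testes (adjusted p = 0.309). In knockout testes Fbxw7, the F-box gene whose product marks cyclin E for breakdown, was 5.02-fold (1424986_s_at) and 1.59-fold (1451558_at) higher in 129Sv. On 1424986_s_at it had 138, 162 and 194 in 129Sv knockout testes, against 68.1, 65.1 and 7.75 in B6 knockout testes. The value of 7.75 belongs to B6 knockout replicate 3, the array of the highest Actb ratio, and the 5.02-fold size rests partly on it. Tfdp2, a partner of E2F factors, was higher in 129Sv knockout testes on 3 probe sets. The count of 12 in knockout testes was 6 without 129Sv knockout replicate 2 or 3.

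Genes whose pattern over the 12 arrays was most like that of a listed gene were taken by Pearson's r on log2 values, among 12727 genes with 1 probe set each. Points of 1 group share genotype and strain, so these values describe and are not tested. Ccnd1 was most like Tcea3, Hesx1 and Sp5 (r of 0.94, 0.94 and 0.93), and Ccnd2 most like Cnst, Rnf144b and Gng12 (0.98, 0.96 and 0.95). Ccnd3 was most like Numb, Slc26a11 and Taok2 (0.92, 0.91 and 0.86). This was on its bright probe set 1415907_at, which passed in no comparison of the fit over all 12 arrays. Cdkn1a was most like Retreg1, Rnf17 and Ces1c (0.97, 0.96 and 0.96), and Cdkn1b most like Ece1, Ppp4r3a and Med14 (0.91 each). Cdkn2a was most like Tmem130, Ccdc172 and Kctd13 (0.99 each), Cdkn2b most like Ttc19, Tars2 and Napepld (0.98 each), and Rb1 most like Kcnn2, Ipo4 and Gin1 (0.99, 0.98 and 0.98). After each group's mean was taken away, r was still 0.96 between Ccnd2 and Cnst and 0.93 between Rb1 and Kcnn2, but 0.49 between Ccnd1 and Hesx1.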

How the data were processed

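RNA of 12 fetal testes samples was measured on Affymetrix arrays, and the deposited values are intensities of 45101 probe sets that the authors summarised with GCRMA, per the submitters' processing notes, with version and settings not given in the sources used here. GCRMA corrects background by probe sequence and normalises quantiles. No value was below 1 and array medians were near 18, so they were read as linear, and log2 was taken here although the design had assumed log2 values. Groups came from the sample descriptions. The platform annotation, with symbols updated to RefSeq, named the probe sets (34945 with 1 gene, 932 with several, 9160 with none), and 64 control probe sets were left out. Probe sets with an intensity of at least 16 in at least 3 arrays were tested. A model of 4 group means over all 12 arrays was fitted with limma 3.58.1 in R 4.3.3 (eBayes with trend, 8 residual and 5.28 prior degrees of freedom), with p-values adjusted over 24820 probe sets. Folds against a group mean under 16 are given as "at least", computed against 16. With 3 arrays per group, an exact permutation test cannot go below 0.1, and the number of arrays limits the precision. The fit was tested on simulated data. Same-numbered replicates of the groups compared did not deviate together (correlations of -0.51 to 0.14). With 3 arrays per group this cannot exclude a pairing, and the fit left the samples unpaired. The title number shared by B6 replicates was tried as a random block. The 10 genes, the lists of other G1 to S genes, division genes and cell type markers, and the rule for the named genes (every listed gene's probe sets, list members past the threshold up to 8 per list and comparison, and the 3 most similar genes) were chosen with earlier results of these data known. Alternatives were other filters, floors and pseudocounts, normalisations, probe set rules, variance models, weights, covariates, blocks and samples.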

Additional observations from a re-analysis of the deposited data

Results flagged for a closer look

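Cdkn1b, on probe set 1434045_at, moved in opposite directions on every array of the 2 strains. In 129Sv its knockout arrays, at 2112, 2751 and 2000.2, were all above the wild-type arrays, at 1560.0, 1826 and 1945. In B6 its knockout arrays, at 2617, 2287 and 2244, were all below the wild-type arrays, at 3034, 2758 and 3065. Neither difference passed by itself (limma adjusted p = 0.145 in 129Sv and 0.183 in B6). How many of all probe sets split in this way was not counted. The difference of the knockout effects, 129Sv minus B6, had a log2 value of 0.67 ± 0.18, short of the threshold in the test (limma adjusted p = 0.146) but past it with array weights (adjusted p = 0.0362). The other Cdkn1b probe set, 1419497_at, had knockout and wild-type arrays that overlapped in both strains. Its log2 differences, -0.11 ± 0.37 in 129Sv and -0.74 ± 0.37 in B6, did not pass and did not have opposite signs.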

How the results depend on the processing

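The 55 log2 differences of the listed genes with an unadjusted p under 0.05 were recomputed under the alternatives, 1436 values in all, and 1243 kept their direction and side of the threshold, 145 no longer passed, 48 newly passed and 0 changed sign. The other 55 log2 differences had an unadjusted p of at least 0.05, and of their 1437 recomputed values 85 had another sign and 11 passed. Calls that held under every alternative were 0 of 10 for the knockout in 129Sv, 0 of 6 for the knockout in B6, 4 of 9 for the strains in knockout testes and 4 of 5 in wild-type testes. The cause of the shifts was not tested.

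For the listed genes, the count in 129Sv was 3 with 1 probe set per gene. Counts with title number 11 as a covariate are not given, since only replicate 2 then stands for 129Sv wild type. In B6 it was 1 without a filter, 3 with the floor, 3 with 1 probe set per gene (1 higher, 2 lower), 2 without trend, 15 with array weights (5 higher, 10 lower), 2 with the Actb ratio as a covariate (both higher, none of the 6 falls), 3 without the 2 arrays of the highest Actb ratio (1 higher, 2 lower) and 0 with the groups fitted alone. It was 2 with weights for the difference of effects, 9 with weights between wild types, and 4 with 1 probe set per gene, 15 with weights and 5 without the 2 arrays between knockouts.

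The replicate number as a block, though no label says that it pairs the samples, gave 1 call in B6 and 9 in 129Sv for the listed genes, and 2 in 129Sv for the other G1 to S genes. The number that titles share, as a random block (consensus correlation 0.0795), gave 7 calls in B6 for the listed genes, 1 higher (Ccnd1 1448698_at) and 6 lower. The other G1 to S genes also gave, in 129Sv, 1 with 1 probe set per gene and 7 with the Actb ratio, and in B6 10 with weights. For its difference of effects there were 3 with weights, 1 with the Actb ratio and 1 without the 2 arrays. Between wild types it gave 3 with 1 probe set per gene, and between knockouts 5 with 1 probe set per gene and 6 with the groups alone.

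For all probe sets, 129Sv gave 3169 with weights and 280 with title number 11, and B6 gave 4691 with weights, 660 with the Actb ratio and 394 with the groups alone. The difference of effects gave 177 with the floor, 125 with log2(value + 16), 167 with 1 probe set per gene, 1358 with weights and 124 without the 2 arrays. Wild types gave 2058 with 1 probe set per gene, 6430 with weights and 1921 with title number 11, and knockouts 4346 with 1 probe set per gene and 11214 with weights.

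Leaving out 1 array at a time, the listed genes gave 5 to 11 calls in 129Sv, 0 to 7 in B6, 0 for the difference of effects, 5 to 10 between knockouts and 4 to 6 between wild types. The other G1 to S genes gave 0 to 5, 2 to 4, 0 to 1, 6 to 13 and 5 to 9 in the same order, and all probe sets 649 to 1995, 437 to 1523, 34 to 141, 5047 to 7551 and 1683 to 4869. Intensities near 16, as for Cdkn1a 1421679_a_at, Ccnd3 1438805_at, Ccnd1 1417419_at in wild-type testes and Cdkn2a and Cdkn2b in B6, carry little signal over background.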

Other observations

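Genes of DNA replication and mitosis (20 genes, 39 tested probe sets) gave 1 call in the knockout comparisons. In 129Sv 1 probe set rose (2.56%, against 5.24% of all), of the mitotic checkpoint kinase gene Bub1 (1438571_at, 1.81-fold, limma adjusted p = 0.0113), and in B6 0 passed (7 at an unadjusted p under 0.05), against 4.61% of all. Between the strains, 10 of the 39 passed in knockout testes (8 higher in 129Sv, 2 lower), 25.6% against 30.0% of all, and 7 of the 39 in wild type (6 higher, 1 lower), 17.9% against 13.6% of all. Rrm2, a subunit gene of the enzyme that makes deoxyribonucleotides, was 5.14-fold higher in 129Sv knockout than in B6 knockout testes (adjusted p = 4.47e-07) and 5.59-fold higher in wild type (3.74e-07). The same Bub1 probe set was 3.41-fold lower in 129Sv in knockout testes and 4.96-fold lower in wild type, while another (1424046_at) was 1.93-fold higher in 129Sv knockout testes. The replication helicase genes Mcm3, Mcm5 and Mcm7 were each higher in 129Sv on at least 1 probe set in both genotypes.

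Among the marker lists, Dppa3 was the 1 germ cell marker that rose in 129Sv knockout testes (1.90-fold, limma adjusted p = 0.00306), while Mael (1.94-fold), Dnd1 (2.69-fold) and Tdrd1 (at least 2.15-fold) fell in B6 knockout testes. Of the Sertoli cell markers, Cst9 and Hsd17b3 fell with the knockout in both strains and Sox8 in B6. The ovarian somatic marker Rspo1 was 3.02-fold higher in 129Sv knockout testes, and Wnt4 1.75-fold higher in B6 knockout testes. Of the mesonephros markers, Pax8 was 3.69-fold lower in 129Sv knockout testes. Fetal Leydig cell markers rose on 1 of 9 probe sets in B6. With limma, 0 of the 16 interstitial, 9 endothelial, 9 macrophage and 3 red blood cell probe sets passed in either knockout comparison. At an unadjusted p under 0.05 there were 2, 2, 0 and 0 of these in 129Sv, and 1, 1, 1 and 0 in B6. The other lists held 9 tested germ cell, 14 Sertoli cell, 5 ovarian somatic and 3 mesonephros probe sets. Of all tested probe sets, 5.24% passed in 129Sv and 4.61% in B6, and at such shares short lists can hold 0 calls. Between the strains in knockout testes, 5 of 9 endothelial, 3 of 9 macrophage and 1 of 3 red blood cell probe sets were lower in 129Sv, and 12.7% of all tested probe sets were.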
